A study of Mus musculus with 16 samples.

Results

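The genes described here are 9 mouse genes whose transporters take filtered amino acids back up in the proximal tubule of the kidney: Slc3a1, Slc7a9, Slc6a18, Slc6a19, Slc6a20a and Slc1a1 at the apical, urine-facing membrane, and Slc3a2, Slc7a7 and Slc7a8 at the basolateral, blood-facing membrane. Every probe set whose annotated symbol was one of these 9 was taken, which gave 13 of the 45101 probe sets on the array, and all 13 passed the filter on dim signals. Of the 9 genes, 6 had 1 probe set, 2 (Slc6a19 and Slc7a7) had 2, and Slc1a1 had 3. Where a gene had several, the one with the highest mean signal over the 16 arrays stood for the gene in counts.

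The study set kidneys without aquaporin-11 (Aqp11), a water channel of intracellular membranes whose loss gives mice polycystic kidneys, against normal kidneys. The 9 knockout pups (Aqp11-/-; 5 males and 4 females) and 7 wild-type littermates (Aqp11+/+; 3 males and 4 females) were 7 days old and came from 5 breeding pairs of heterozygotes. The Aqp11 allele was made in 129/SvEvBrd mice and had been backcrossed repeatedly to C57BL/6, and the strain label of the samples is C57BL/6J. The labels name no promoter or Cre that would restrict the deletion to a tissue. RNA of each kidney went to an array of its own, a whole-genome Affymetrix mouse array, so the replicates are separate animals. The brightest Aqp11 probe set read 7.87 ± 0.16 (SD, n = 7) on the log2 signal scale in wild types and 2.95 ± 0.33 (SD, n = 9) in knockouts, at least 30.3-fold lower, with 7 of the 9 knockout arrays at the floor of the scale (2.78). The genotype labels and the targeted gene thus matched on every array.

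Free amino acids pass the glomerular filter, and the proximal tubule recovers nearly all of them by importing them across its brush border and releasing them to the blood. The cystine and basic amino acid transporter pairs a heavy chain, Slc3a1, with a light chain, Slc7a9, and loss of either causes cystinuria. The basolateral exchangers share the heavy chain Slc3a2, which binds the light chains Slc7a7, mutated in lysinuric protein intolerance, and Slc7a8, an exchanger of neutral amino acids. Slc6a19, mutated in Hartnup disorder, is the main sodium-coupled importer of neutral amino acids and needs the accessory protein collectrin (Cltrn) to reach the membrane. Its relative Slc6a18 also carries neutral amino acids, Slc6a20a carries proline and other imino acids, and Slc1a1 carries glutamate and aspartate.

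Stretches of 120 bases upstream of the start sites are shown for 5 of the genes, to set the heavy and light chains and the member with the largest fall side by side. They are RefSeq sequences of assembly GRCm38.p6, given 5′ to 3′ on the strand of the gene, and end at the base before the start, except that of Slc7a7, which ends 30 bases earlier. They lie at chr17:85028227-85028346 on the plus strand for Slc3a1, chr7:35448972-35449091 on the plus strand for Slc7a9, chr13:73692637-73692756 on the minus strand for Slc6a19, chr19:8713898-8714017 on the minus strand for Slc3a2 and chr14:54417975-54418094 on the minus strand for Slc7a7. Capitals mark a match to a motif searched on both strands: for HNF4, a nuclear receptor of the proximal tubule, CAAAGTCCA in Slc3a1, and for the ATF4 and C/EBP composite site of the amino acid stress response, TGATGNAA in Slc7a7.
Slc3a1: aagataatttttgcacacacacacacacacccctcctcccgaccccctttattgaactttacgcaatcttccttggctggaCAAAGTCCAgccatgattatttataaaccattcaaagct
Slc7a9: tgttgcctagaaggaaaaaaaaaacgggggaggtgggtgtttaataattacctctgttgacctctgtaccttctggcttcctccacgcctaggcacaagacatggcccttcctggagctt
Slc6a19: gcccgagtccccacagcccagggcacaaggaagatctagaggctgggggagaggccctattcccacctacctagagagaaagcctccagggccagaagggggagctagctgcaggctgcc
Slc3a2: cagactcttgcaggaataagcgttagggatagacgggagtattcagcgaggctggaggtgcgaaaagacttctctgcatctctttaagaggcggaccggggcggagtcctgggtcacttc
Slc7a7: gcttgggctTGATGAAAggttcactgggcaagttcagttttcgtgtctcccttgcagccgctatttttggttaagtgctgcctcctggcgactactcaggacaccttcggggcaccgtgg

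The promoter table held 13 entries of 300 bases, 250 before and 50 after a start, for 8 of the 9 genes, and Slc6a18 was not matched. The HNF4 letters were found in 1 of these genes, Slc3a1, from 39 to 31 bases before the start. Of all 27025 genes 0.555% held them, and of all 32851 entries 0.475%. The ATF4 and C/EBP letters were found in 1 gene, Slc7a7, and in 4.51% of all genes and 3.97% of all entries. Slc7a7 had more entries than any other of these genes. The 2 of its entries with a match overlap, and the TGATGCAA found in both is the same site. No match of 1 motif overlapped another, and a match is a description of these bases, not a measured binding site.

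Knockout kidneys held less message of 6 of the 9 genes and more of none, by limma over all 27377 probe sets tested with Benjamini-Hochberg adjusted p under 0.05. Slc6a19, Slc7a7, Slc3a1, Slc7a9, Slc1a1 and Slc7a8 were between 1.68-fold and 2.58-fold lower, while Slc6a18, Slc6a20a and Slc3a2 did not pass. By membrane, 4 of the 6 apical genes and 2 of the 3 basolateral genes were lower. Of the 13 probe sets, 10 were lower, where 5.46% of all tested probe sets were lower and 6.21% higher. Over the 12499 genes tested, 7.3% were lower, 8.44% were higher and the median log2 change was 0.00318, against -0.76 over the 9 transporter genes. Every knockout array lay below every wild-type array for 7 of the 13 probe sets and 5 of the 9 genes, as it did for 1.69% of all tested probe sets and 2.43% of all tested genes. Every knockout array lay above for none of them, against 2.06% of probe sets and 2.91% of genes.

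**Figure D1:**
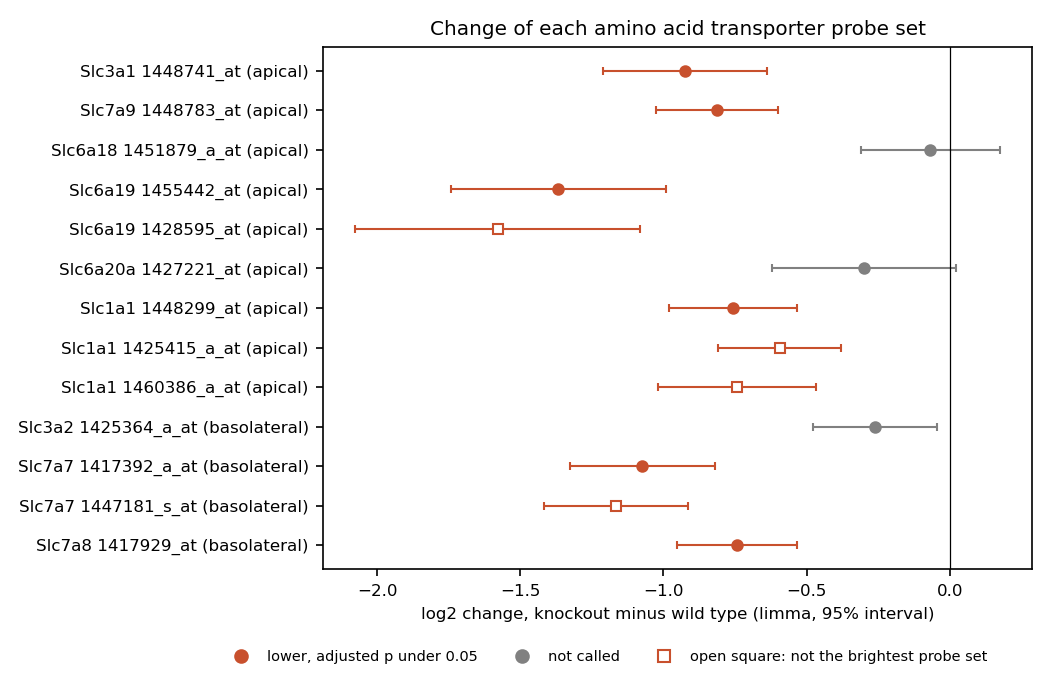
Log2 change (knockout minus wild type, 9 against 7 arrays) of each of the 13 probe sets, with its 95% interval from limma. The intervals of the 10 probe sets called lower lie wholly below 0, as does that of Slc3a2, which was not called after adjustment, and those of Slc6a18 and Slc6a20a include 0.

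Some arrays stood apart for these genes. Wild-type array 1-1 was the highest wild type for 7 of the 9 genes. Knockout array 2-3 was the lowest knockout for 6 genes and also had the lowest summed signal of 14 proximal tubule markers (16449). Knockout array 1-2 was the highest knockout for Slc3a1, Slc6a18, Slc6a19 and Slc6a20a but the lowest for Slc3a2 and Slc7a8, and had the highest summed signal of 14 macrophage markers (11010) and the highest level of the tubule injury gene Havcr1 (log2 9.64). Without these 3 arrays, an alternative added after seeing the data, again 6 of the 9 genes were lower. Array brightness before normalisation, a trimmed mean signal from 111.2 to 236.3, differed 2.12-fold over the 16 arrays, and 6 of the 9 genes were lower within the 8 brighter arrays alone and within the 8 dimmer arrays alone.

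Among the apical genes, the messages of the heavy and light chains of the cystine transporter fell by similar amounts. Slc3a1 (1448741_at) ranged from 10.16 to 11.08, median 10.19, in wild types and from 8.84 to 9.95, median 9.50, in knockouts. Its groups did not overlap, and the wild type at the top was array 1-1, with the next at 10.46. The mean fell by 0.92 on the log2 scale (SE 0.137), or 1.9-fold, with limma adjusted p = 8.94e-05. Slc7a9 (1448783_at) ranged from 10.34 to 10.70, median 10.43, in wild types and from 9.24 to 9.98, median 9.57, in knockouts. Again every knockout array lay below every wild-type array, and the wild types were tight. Slc7a9 fell by 0.81 on the log2 scale (SE 0.102), or 1.76-fold, with limma adjusted p = 1.23e-05.

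Slc6a19, the neutral amino acid importer, had the largest fall of the 9 genes. Its brightest probe set, 1455442_at, ranged from 7.40 to 8.38, median 8.15, in wild types and from 6.11 to 7.59, median 6.66, in knockouts. All but 1 knockout lay below the lowest wild type, the exception being array 1-2 at 7.59, with the next knockout at 6.82. The fall was 2.58-fold (log2 change -1.37, SE 0.180, limma adjusted p = 2.18e-05). Its other probe set, 1428595_at, ranged from 6.75 to 7.98 in wild types and from 4.80 to 6.81 in knockouts, and was 2.99-fold lower (adjusted p = 0.000105). Both probe sets thus gave the same direction, with the same knockout array at the top.

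Slc6a18, next to Slc6a19 on chromosome 13 with no annotated gene between them, did not follow it. Slc6a18 (1451879_a_at) ranged from 9.05 to 9.47, median 9.12, in wild types and from 8.68 to 9.81, median 9.13, in knockouts. The medians lay together, and the knockouts reached both below and above the wild types, with array 1-2 at the top and array 2-3 at the bottom. The log2 change was -0.07 (95% interval -0.31 to 0.17, limma adjusted p = 0.799), an interval that does not reach the change of Slc6a19. The contrast between the neighbours was then tested within arrays, as a test added after their values were seen, a choice that its adjusted p does not cover. The log2 signal of Slc6a19 minus that of Slc6a18 on the same array was -1.20 ± 0.35 (SD, n = 7) in wild types and -2.49 ± 0.22 (SD, n = 9) in knockouts. All 9 knockouts lay below all 7 wild types, and the difference changed by -1.30 (exact permutation p = 8.74e-05, the smallest that 9 against 7 arrays can give, and 0.000146 adjusted over the 5 pairs compared).

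Slc6a20a, the imino acid transporter, gave no call. Its probe set 1427221_at ranged from 6.29 to 7.54, median 6.64, in wild types and from 6.13 to 6.87, median 6.35, in knockouts. The groups overlapped widely, and the top wild type was array 1-1, with the next at 6.79. The log2 change was -0.30 (95% interval -0.62 to 0.02, limma adjusted p = 0.253) and was -0.16 without wild-type array 1-1. The adjacent paralog Slc6a20b on chromosome 9 went from 9.25 ± 0.22 (SD, n = 7) to 8.11 ± 0.41 (SD, n = 9) and was 2.22-fold lower (limma adjusted p = 2.18e-05). The genes are close copies, so how far each probe set reads the other gene is uncertain.

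Slc1a1, the glutamate and aspartate transporter, was lower by all 3 of its probe sets. The brightest, 1448299_at, ranged from 8.98 to 9.56, median 9.06, in wild types and from 7.81 to 8.63, median 8.48, in knockouts. The groups did not overlap, and knockout array 2-3 lay alone at the bottom, with the next at 8.41. The fall was 1.69-fold (log2 change -0.76, SE 0.107, limma adjusted p = 4.93e-05), and the log2 change was -0.62 without arrays 1-1, 1-2 and 2-3. The probe sets 1425415_a_at and 1460386_a_at were 1.51-fold and 1.67-fold lower, with limma adjusted p = 0.000446 and 0.000592. With the deposited signals left unscaled, these 2 probe sets did not pass (adjusted p = 0.331 and 0.0685), while the brightest did.

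**Figure D2:**
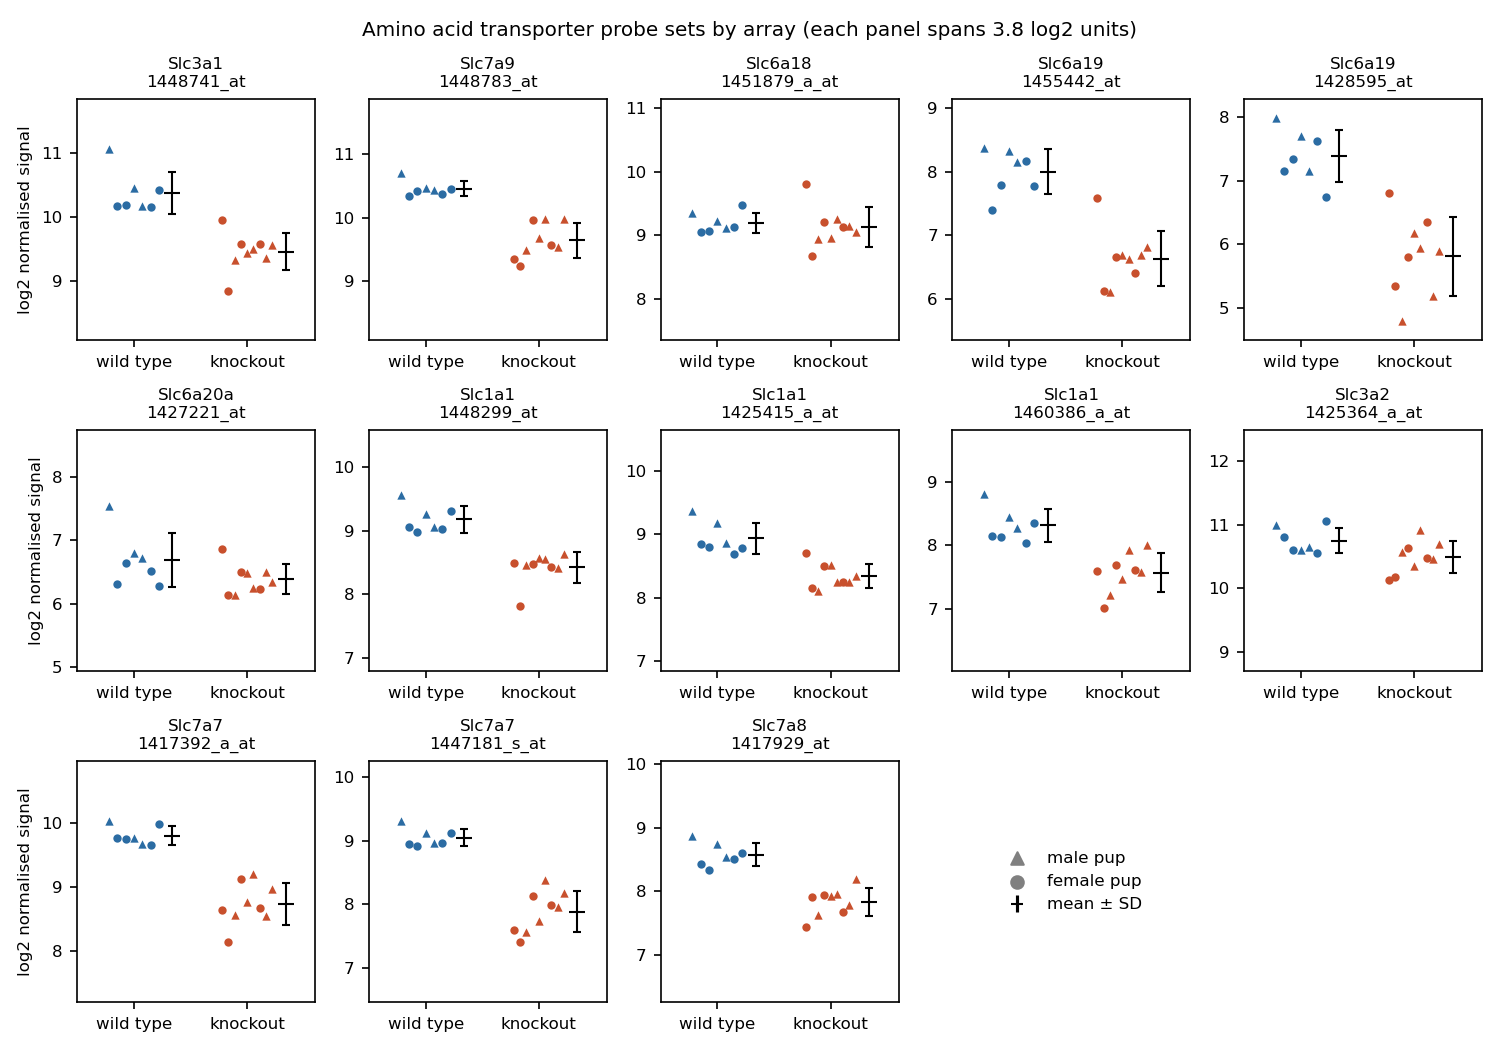
Log2 normalised signal of each of the 13 probe sets on each array, with triangles for male and circles for female pups, wild types in blue, knockouts in red and the mean ± SD in black. Each panel spans the same 3.8 log2 units, and the groups of Slc3a1, Slc7a9, Slc7a8, both Slc7a7 probe sets and 2 of the Slc1a1 probe sets do not overlap.

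Among the basolateral genes, the messages of both light chains fell while that of the shared heavy chain gave no call. Slc7a7 (1417392_a_at), which releases basic amino acids to the blood, ranged from 9.66 to 10.04, median 9.77, in wild types and from 8.13 to 9.21, median 8.66, in knockouts. The groups stood well apart, with 0.45 log2 units between the lowest wild type and the highest knockout. Slc7a7 was 2.10-fold lower (log2 change -1.07, SE 0.121, limma adjusted p = 3.23e-06), and its second probe set, 1447181_s_at, was 2.25-fold lower (adjusted p = 1.02e-06). Slc7a8 (1417929_at) ranged from 8.33 to 8.86, median 8.53, in wild types and from 7.44 to 8.18, median 7.91, in knockouts. Its groups did not overlap either, and array 1-2, the top knockout for Slc6a19, was here the lowest. The fall of Slc7a8 was 1.68-fold (log2 change -0.74, SE 0.100, limma adjusted p = 2.92e-05).

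Slc3a2 (1425364_a_at), the heavy chain, ranged from 10.56 to 11.06, median 10.65, in wild types and from 10.13 to 10.92, median 10.48, in knockouts. Of the 9 knockouts, 5 lay below the lowest wild type and 4 among the wild types. The log2 change was -0.26 (95% interval -0.48 to -0.04), with limma adjusted p = 0.123 and exact permutation p = 0.0429, and with the arrays scaled by their medians the exact permutation p was 0.0885. Leaving out knockout array 3-4 alone brought the limma adjusted p to 0.0379 (log2 change -0.31), and without arrays 1-1, 1-2 and 2-3 it was 0.490 (-0.12). The call of Slc3a2 thus depended on which arrays were kept.

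Within arrays the messages of the basolateral light chains changed more than that of their heavy chain. Slc7a7 minus Slc3a2 went from -0.94 ± 0.09 (SD, n = 7) to -1.76 ± 0.21 (SD, n = 9), a change of -0.81 with all 9 knockouts below all wild types (exact permutation p = 8.74e-05, adjusted 0.000146). Slc7a8 minus Slc3a2 changed by -0.48, with 7 of 9 knockouts below all wild types (exact permutation p = 0.00105, adjusted 0.00131). For the apical pair, Slc7a9 minus Slc3a1 went from 0.08 ± 0.22 (SD, n = 7) to 0.18 ± 0.33 (SD, n = 9), a change of 0.11 inside the spread (exact permutation p = 0.487). Slc6a19 minus Slc6a20a changed by -1.07, with all 9 knockouts below all wild types (exact permutation p = 8.74e-05, adjusted 0.000146). These pairs were chosen after the single values were seen, and the adjusted p does not cover that choice. Only the change of a difference is read, since different probe sets do not share a scale.

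**Figure D3:**
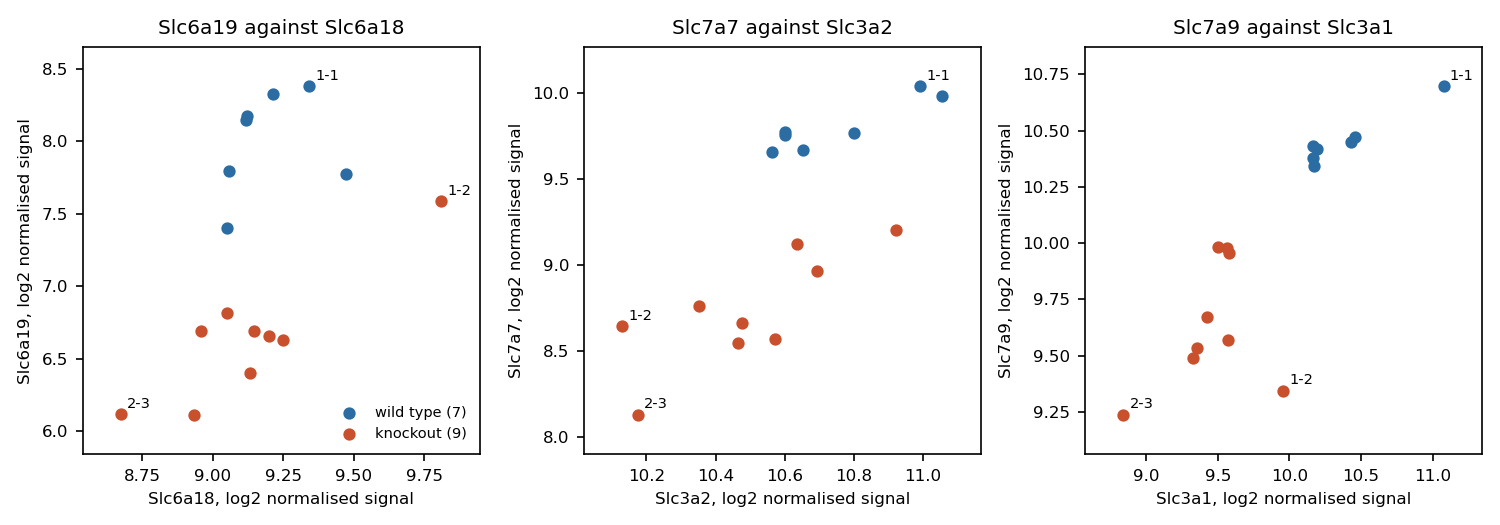
Log2 normalised signal of Slc6a19 against Slc6a18, Slc7a7 against Slc3a2 and Slc7a9 against Slc3a1, with 1 point an array (7 wild types in blue, 9 knockouts in red) and the arrays 1-1, 1-2 and 2-3 named. In the first 2 panels the knockouts lie below the wild types at like levels of the gene on the horizontal axis, and in the third the groups part along both axes.

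How partner genes moved together among animals of 1 genotype was examined over 12 relations, by Pearson's r with exact permutation of the pairings. Slc3a1 and Slc7a9 gave r = 0.96 among the 7 wild types (exact permutation p = 0.00317, adjusted 0.036), with Spearman's rho at 0.82 (adjusted exact permutation p = 0.177). Without the 2 arrays farthest from the median of Slc3a1, r was 0.61, while with the arrays scaled by their medians or left as deposited it was 0.93 and 0.95 without them. How far the relation rests on those arrays thus depended on the scaling. Among the 9 knockouts they gave r = 0.32 and rho = 0.33 (adjusted exact permutation p = 0.542 and 0.420), and without the 2 farthest arrays r was 0.70, or 0.84 with median scaling. The difference between the genotypes in r was not tested. Slc6a18 and Slc6a19 gave r = 0.89 among the knockouts (exact permutation p = 0.00601, adjusted 0.036) with rho at 0.52 (adjusted exact permutation p = 0.277). Without the 2 farthest arrays r was 0.38, and 0.40 and 0.89 with median and deposited scaling, so in the first 2 of these the relation rests on those arrays. Among wild types r was 0.27 (adjusted exact permutation p = 0.611), and without the 2 farthest arrays it was 0.86, or 0.06 and 0.46 with median and deposited scaling. For Slc3a2 and Slc7a7, r was 0.78 among knockouts and 0.90 among wild types, each with an exact permutation adjusted p of 0.0524, and rho was 0.72 and 0.76, each with 0.177. Without the 2 farthest arrays r was 0.82 and 0.39. With median and deposited scaling it was then 0.87 and 0.88 among knockouts, and 0.87 and 0.93 among wild types. The other relations (Slc3a2 with Slc7a8 and with Slc7a5, and Slc6a19 with Cltrn) had adjusted exact permutation p between 0.136 and 0.885.

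Across all 16 arrays, with each genotype centred on its own mean, the transporter genes most alike were Slc7a9 and Slc7a7 (r = 0.91), Slc3a1 and Slc1a1 (0.84) and Slc3a2 and Slc7a7 (0.78), and the least alike were Slc6a18 and Slc7a8 (-0.23). These values are a description over arrays that share their scaling. Centring takes out the change with genotype, so genes alike here can differ in that change. Among all other tested genes, those most like Slc7a9 were Asl, argininosuccinate lyase (r = 0.95), the bicarbonate cotransporter Slc4a4 (0.94) and the folate receptor Folr1 (0.93). Slc7a7 was most like Slc4a4 (0.92), the potassium channel Kcnj16 (0.91) and the claudin Cldn2 (0.91). Slc3a1 was most like Apoe (0.95), Rdh16 (0.93) and Hgd (0.91), and Slc1a1 most like the ascorbate transporter Slc23a1 (0.96), Aldh8a1 (0.91) and Bdh2 (0.91). Slc6a19 was most like Ctsk (0.94), Selenop (0.90) and Fga (0.89), Slc6a18 most like 1700016C15Rik (0.90), Lgmn (0.89) and Hsd11b1 (0.88), and Slc6a20a most like Ppa2 (0.89), Hnmt (0.87) and Spink1 (0.86). Slc3a2 was most like Antkmt (0.95), Gm12338 (0.94) and the amino acid transporter Slc43a2 (0.94). Slc7a8 had the weakest best match, at 0.82 with Cdk1, Mok and Pxmp2. Of all these matches, only Ctsk and 1700016C15Rik were called higher in knockouts (log2 change 0.45 and 0.62, limma adjusted p = 0.0145 and 0.023).

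No transporter gene passed a test of whether the change differed between male and female pups. For the 13 probe sets the limma interaction had adjusted p between 0.488 and 0.972, and over all tested probe sets none passed at 0.05. Unadjusted p was under 0.05 for 2 of the 13, Slc6a20a and 1425415_a_at of Slc1a1, as it was for 10.2% of all tested probe sets. Slc6a20a had log2 changes of -0.67 in males and -0.0055 in females, and Slc6a19 (1455442_at) of -1.70 and -1.10. Slc3a1 had -1.13 in males and -0.75 in females, while Slc7a9 had -0.80 and -0.87 and Slc7a7 (1417392_a_at) -1.02 and -1.15. Females alone gave 4 of the 9 genes lower, since Slc3a1 and Slc6a19 missed the threshold there (limma adjusted p = 0.0592 and 0.0609).

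Genes whose proteins serve these transporters or handle peptides at the brush border mostly had less message too. Of 9 tested genes of the list, 6 were lower, 0 higher and 3 did not pass, with a median log2 change of -0.44. Over all 12499 genes tested, 7.3% were lower and 8.44% higher. With the deposited signals left unscaled, 2 of the 9 were lower. Calls over all probe sets then fell too, from 1495 lower and 1700 higher to 198 and 375. The peptidases Dpep1 and Mep1b were 1.96-fold and 1.72-fold lower, Mep1a, Anpep and Dpp4 1.37-fold, 1.31-fold and 1.31-fold lower, and the peptide transporter Slc15a2 1.5-fold lower. A dimmer tested probe set of Dpp4 and one of Slc15a2 did not pass (log2 change -0.53 and -0.33, limma adjusted p = 0.0503 and 0.37). Cltrn, the partner of Slc6a19, went from 11.33 ± 0.37 (SD, n = 7) to 10.90 ± 0.45 (SD, n = 9), which did not pass (limma adjusted p = 0.133). Enpep did not pass either, with a log2 change of -0.07. The probe sets of the peptidase Mme disagreed: the brightest, which gave its call, had a log2 change of -0.20 and did not pass (limma adjusted p = 0.209), while the other was lower (log2 change -0.41, adjusted p = 0.0085).

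Among 13 tested amino acid transporters of other tubule roles, 5 were lower, 0 higher and 8 did not pass, with a median of -0.28. The share lower over all tested genes was 7.3%. With the deposited signals left unscaled 2 were lower, while calls over all probe sets fell from 1495 lower to 198. Slc7a13, a light chain that pairs with Slc3a1 in the late proximal tubule, read 8.36 ± 0.42 (SD, n = 7) in wild types and 6.80 ± 0.16 (SD, n = 9) in knockouts, 2.93-fold lower (limma adjusted p = 1.23e-07), with no overlap between the groups. Slc6a20b, Slc6a15, Slc43a2 and Slc7a12 were the other 4 lower, by 2.22-fold, 1.74-fold, 1.5-fold and 1.49-fold. For Slc43a2 the other tested probe set did not pass (log2 change -0.37, limma adjusted p = 0.0737). The glutamine transporter Slc38a3 did not pass (log2 change -0.32, adjusted p = 0.0614).

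The transporters listed for growth and amino acid stress went the other way. Of 12 tested, 10 were higher, 0 lower and 2 did not pass, with a median log2 change of 0.46. The share higher over all tested genes was 8.44%. The cationic amino acid transporter Slc7a3 read 4.32 ± 0.46 (SD, n = 7) in wild types and 6.38 ± 0.30 (SD, n = 9) in knockouts, 4.17-fold higher (limma adjusted p = 1.6e-07). Slc7a5, the light chain of Slc3a2 in growing cells, read 5.45 ± 0.26 (SD, n = 7) in wild types and 6.44 ± 0.35 (SD, n = 9) in knockouts, 1.99-fold higher (adjusted p = 0.000147). Slc7a2, Slc7a1, Slc1a5 and Slc38a2 were 1.65-fold, 1.40-fold, 1.42-fold and 1.3-fold higher, but for Slc7a2, Slc1a5 and Slc38a2 no tested probe set other than the brightest passed. The messages of the light chains of Slc3a2 therefore moved in opposite directions, Slc7a7 and Slc7a8 down and Slc7a5 up. With the deposited signals left unscaled 2 of the 12 genes were higher, while calls over all probe sets fell from 1700 higher to 375.

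**Figure D4:**
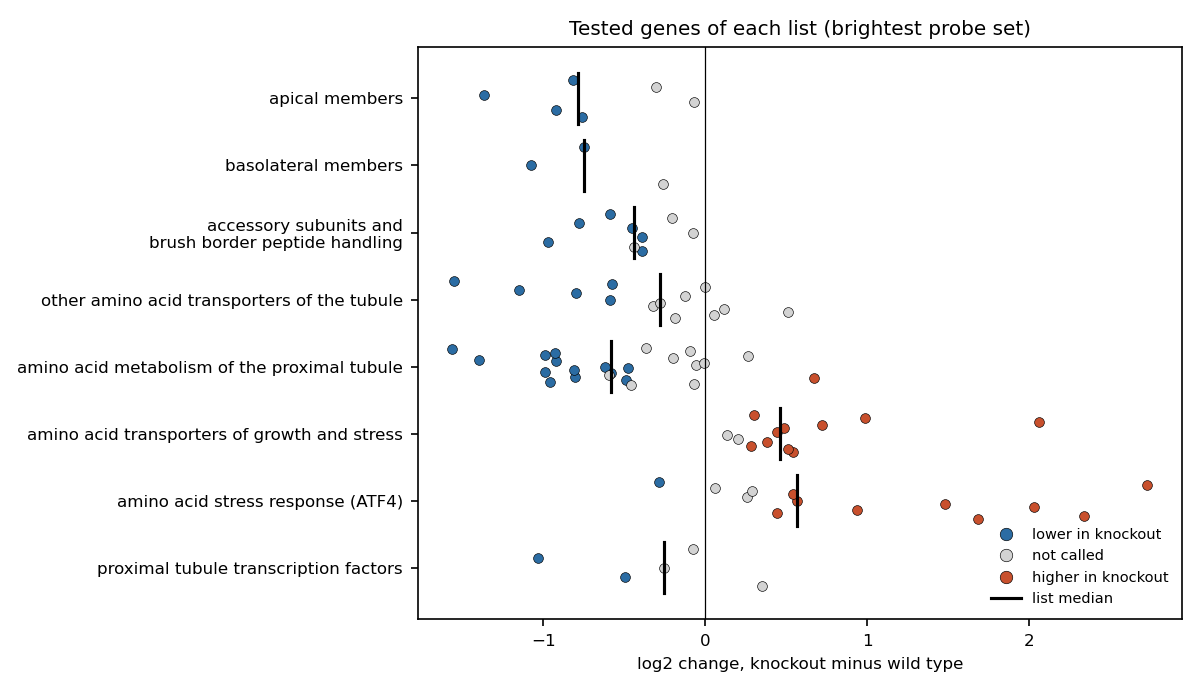
Log2 change (knockout minus wild type) of every tested gene of each list by its brightest probe set, coloured by its call at a limma adjusted p of 0.05, with a black line at the list's median. The medians of the apical and basolateral genes lie at -0.79 and -0.74, that of the growth and stress transporters at 0.46 and that of the ATF4 list at 0.57.

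Genes that act on amino acids inside the proximal tubule cell were lower in 13 of 23 tested cases, higher in 1 and not called in 9, with a median of -0.58. Over all tested genes, 7.3% were lower and 8.44% higher. With the deposited signals left unscaled, 8 were lower and 0 higher, while calls over all probe sets fell to 198 lower and 375 higher. Pck1, of gluconeogenesis, and Ddc, which makes dopamine, were each 1.98-fold lower. Prodh2, of hydroxyproline breakdown, was 2.95-fold, Kmo of tryptophan breakdown 2.63-fold, Asl of arginine synthesis 1.74-fold and the D-amino acid oxidase Dao 1.49-fold lower. The arginase Arg2 was the 1 gene higher, by 1.59-fold (adjusted p = 0.0163).

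Of 13 tested genes of the ATF4 response, which cells raise when amino acids run short or proteins misfold, 9 were higher, 1 lower and 3 did not pass. Over all tested genes, 8.44% were higher and 7.3% lower. Asns, Atf3, Ddit3 and Chac1 were 3.21-fold, 5.06-fold, 2.79-fold and 4.08-fold higher, Atf4 itself was 1.36-fold higher, and Trib3 was at least 6.64-fold higher, with 1 wild-type array at the floor. For Ddit3 and Atf4 the other tested probe set did not pass (log2 change 0.30 and 0.53, limma adjusted p = 0.452 and 0.108). Vldlr was the 1 lower, by 1.22-fold, though a dimmer tested probe set of it did not pass (limma adjusted p = 0.157). Of 5 tested transcription factors of the proximal tubule, 2 were lower, Hnf4a by 1.41-fold (adjusted p = 4.67e-06) and the fatty acid receptor Ppara by 2.04-fold (0.000819), while Cebpa, Maf and Rxra did not pass. A dimmer tested probe set of Hnf4a did not pass either (log2 change -0.34, limma adjusted p = 0.391). With the deposited signals left unscaled, 0 of the ATF4 list and 1 of the transcription factors were lower, and 6 of the ATF4 list were higher. Calls over all probe sets then fell to 198 lower and 375 higher.

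Markers of cell types moved with the genotype, where 7.3% of all tested genes were lower and 8.44% higher. Of 14 proximal tubule markers, 13 were lower, led by Slc22a8, Spp2 and Slc5a2, and their summed signal per array ranged from 36578 to 41958 in wild types and from 16449 to 27790 in knockouts. The exception was the organic anion transporter Slc22a6 (log2 change 0.06). The summed signal of the 9 transporter genes had a median of 6801 in wild types and 4618 in knockouts, and that of the 14 proximal tubule markers 37469 and 24464. The median log2 change was -0.76 over the transporter genes and -0.64 over these markers. All 14 macrophage markers were higher, led by Cd74, C1qa and Fcgr3, with sums from 2230 to 4093 in wild types and from 6266 to 11010 in knockouts. Of 5 injured tubule markers, 4 were higher, with sums from 1971 to 2920 and from 4532 to 6278, and Havcr1 was at the floor on 4 of the 7 wild-type arrays and on no knockout array. The part of these shifts in the falls of the transporter genes was not tested. In whole kidney RNA, fewer proximal tubule cells and less RNA of a gene per cell cannot be told apart.

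The sums of the other cell types overlapped between genotypes for the loop and distal tubule (10118 to 14365 in wild types, 10627 to 14187 in knockouts), the collecting duct (1441 to 2859 and 2452 to 3772) and podocytes (2529 to 3072 and 2225 to 2882). Of 5 loop and distal tubule markers, 2 were lower, led by Bsnd, of 3 collecting duct markers 1 was higher (Aqp2) and 1 lower (Slc4a1), and of 3 podocyte markers 1 was lower (Nphs1). Endothelial sums did not overlap (3179 to 3760 and 2296 to 2981), with 2 of 4 markers lower, Emcn and Pecam1. Neither of the 2 tested lymphocyte markers passed, and Cd3e was at the floor on 5 wild-type and 5 knockout arrays.

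Within a chromosome, Slc7a7 and Slc7a8 lie on chromosome 14 with 23 annotated genes between them, and Slc3a2 and Slc1a1 on chromosome 19 with 451 between them. Slc7a9 shares chromosome 7 with Aqp11, with 1357 annotated genes between them. The other genes lie on chromosomes 9, 13 and 17.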

How the data were processed

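Each of 16 kidneys was hybridised to 1 array. The authors deposited 1 linear intensity for each probe set and array, between 0.0256 and 14264, and the submitters' processing notes name GCOS 1.3. How arrays were scaled is not stated there. Intensities were quantile normalised, values under the 20th percentile (signal 6.89) were set to it, and log2 was taken, which understates changes of dim genes, and a shift of all mRNA together would not show. Probe sets above the 40th percentile of their array on at least 7 arrays, controls excluded, were tested with limma 3.58.1 in R 4.3.3 (lmFit, eBayes with a trend, genotype as the only term), adjusted by Benjamini-Hochberg over all 27377. Folds are 2 to the log2 change. Single values used exact permutation of genotype labels, two-sided. Names come from the platform annotation, which names 1 gene for 34958 probe sets and several for 932, and lists no entry for 9211. RefSeq GRCm38.p6 served for gene order (34754 matched by gene ID) and promoters.

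The genes and lists were chosen with earlier results of these data known, so no list was tested as a set. Text names all 9 genes, Aqp11, up to 6 tested genes a list by smallest p, up to 3 a marker list and the 3 most like each member. Other names were chosen after their values were seen. Some list genes and the result of 1 searched promoter motif are not reported here. The fit was tested on simulated data first. Alternatives covered scaling, floor, filter, terms, variance model and arrays left out. The number of arrays limits the precision.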

Additional observations from a re-analysis of the deposited data

Results flagged for a closer look

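A lone array, one whose gap to its nearest neighbour is large against the range of its group, was looked for in the 26 groups that 13 probe sets and both genotypes give. In all, 6 were found, where chance gives about 1 in 20 for a single group. The groups share the same arrays and are not independent, and the 6 came from 3 arrays, so the count cannot be set against that rate. In wild types, array 1-1 stood alone at the top for Slc3a1 (11.08 on the log2 signal scale, next 10.46), Slc7a9 (10.70, next 10.47) and Slc6a20a (7.54, next 6.79). In knockouts, array 1-2 stood alone at the top for Slc6a18 (9.81, next 9.25) and for 1455442_at of Slc6a19 (7.59, next 6.82), and array 2-3 stood alone at the bottom for 1448299_at of Slc1a1 (7.81, next 8.41). Without these 3 arrays the log2 changes were -0.79 for Slc3a1, -0.67 for Slc7a9, -0.19 for Slc6a20a, -0.08 for Slc6a18, -1.37 for Slc6a19 and -0.62 for Slc1a1, with the same calls for each of these probe sets.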

How the results depend on the processing

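Of 438 values of single transporter probe sets under the alternatives tried, 429 kept their direction and their side of the threshold. Of the rest, 7 were weaker and 1 stronger, and 1 turned sign: Slc6a18, at 0.029 in females alone. Another floor percentile, filter or variance model leaves the log2 change of these probe sets as it is and could move only the adjusted p. Many other alternatives leave out a single array, so the 438 values are not separate checks. The count of transporter genes lower was 6 in each alternative except females alone (4) and without knockout replicate 3-4 (7), and with each array left out in turn it ranged from 6 to 7. None was higher in any. The first sample number runs from 1 to 5 and the study had 5 breeding pairs, but the labels do not tie the number to the pairs. As a replicate block it also gave 6 lower and 0 higher, with 1885 probe sets lower and 2034 higher overall. Over all tested probe sets, arrays of different genotype sharing that number deviated together little (mean r 0.05 over 13 pairs, -0.14 to 0.29). Pairs with different numbers gave a mean r of -0.012 over 50, and pairs of 1 genotype were not compared. Wild types 2-1 and 2-2, which share a number, had the highest macrophage marker sums of the wild types (4093 and 3890). The mean over the 13 pairs cannot exclude an effect of the number on single genes. As a block the number lowered the SE of Slc3a1 from 0.137 to 0.0767, of Slc7a9 from 0.102 to 0.0876 and of Slc6a18 from 0.116 to 0.0868. The number was not taken as a pairing in the main fit, and whether it marks the breeding pair is not known here.

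Counts over all probe sets moved most. Lower and higher calls numbered 1495 and 1700, 1163 to 1520 and 1405 to 1737 with each array left out, 198 and 375 with deposited scaling, 767 and 1071 in males alone, 325 and 442 in females alone, 849 and 882 in brighter arrays, and 581 and 880 in dimmer arrays; the cause was not tested beyond the fewer arrays in the last 4. With deposited scaling, genes lower were 2 for peptide handling, 2 for other tubule transporters, 8 for metabolism, 0 for the ATF4 list and 1 for transcription factors, and genes higher were 2 for growth and stress transporters and 0 for metabolism. The latter was also 0 with no filter, and 2 with 1 probe set a gene. Transporter probe sets with an unadjusted exact permutation p under 0.05 numbered 11 of 13, and 10 under median and deposited scaling. The share over all tested probe sets was not computed for this test, so the count shows only how it moved with scaling.

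Of the 12 correlations between partners, 11 were higher with deposited scaling, which keeps differences in array brightness that all genes share, the exception being Slc3a1 with Slc7a9 in wild types (0.92). The values were, in knockouts, r = 0.73 for Slc3a1 with Slc7a9, 0.94 for Slc3a2 with Slc7a7, 0.81 for Slc3a2 with Slc7a8 and 0.86 for Slc6a19 with Cltrn and 0.40 in place of -0.28 for Slc3a2 with Slc7a5; in wild types, 0.96 for Slc3a2 with Slc7a7, 0.83 for Slc3a2 with Slc7a8 and 0.89 for Slc6a19 with Cltrn. Median scaling gave 0.83 in knockouts and 0.94 in wild types for Slc3a2 with Slc7a7, past the threshold. The promoter matches lay in the same genes when only the 250 bases before the start were searched.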
